A study of Mus musculus with 65 samples.

Results

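The knockin effect at 28 weeks was compared between medulla and pons, the adjoining lower parts of the brainstem, by asking for each gene whether knockin mice differed from wild type mice by a different amount in the 2 regions. The comparison used the 24 vehicle-treated libraries of medulla and pons at 28 weeks out of 65 libraries in the series, chosen by their labels alone. They fell into 8 wild type medulla, 8 knockin medulla, 4 wild type pons and 4 knockin pons libraries, and each medulla group held 4 libraries of each of 2 labelled batches. All mice were C57BL/6J and had received vehicle with no antisense oligonucleotide, and the knockin mice carried Atxn1[82Q], a mouse Atxn1 gene with an expanded CAG repeat. Total RNA was extracted from the dissected tissue and sequenced from stranded libraries. The file header of each library ends in a number, which was read here as the number of the animal. By that reading, 8 animals gave both a pons and a medulla library, all in medulla batch 1. The medulla animals of batch 2 gave no pons library.

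Expansion of the repeat in ATXN1 causes spinocerebellar ataxia type 1, in which Purkinje cells of the cerebellum and neurons of the brainstem degenerate. Ataxin-1 is a nuclear protein that forms a complex with the transcriptional repressor Capicua. The medulla holds the inferior olive, whose climbing fibres reach the Purkinje cells, and motor nuclei that serve swallowing and breathing. The pons holds the locus coeruleus, the main source of noradrenaline in the brain, the pontine grey and the motor nucleus of the jaw.

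Libraries held from 67.8 to 105.0 M (mega) counts, with a median of 82.4 M. Levels are given as CPM (counts per M of a library's scaled total), and differences as log2 of knockin over wild type. A positive interaction means that the knockin effect was higher in medulla than in pons. The Hox genes, which mark the caudal hindbrain, checked the region labels. Their mean log2 CPM was 2.40 to 3.63 in 14 medulla libraries, but -0.57 in wild type medulla replicate 5 and -0.18 in knockin medulla replicate 8, both under the 0.37 of wild type pons replicate 2. In knockin pons replicate 4 it was 0.13, against -1.32 to -0.99 in the other 3 libraries of that group. Knockin medulla replicate 2 held the highest choroid plexus signal, with Ttr at 23461 CPM against at most 4331 CPM in the other 23 libraries. Many results that rest on these 4 libraries are given with and without them. Leaving out the 4 drops the knockin pons library highest in Hox genes and keeps the wild type one (replicate 2), so a second set, called the 5, leaves that one out too. The p-values measure the spread between libraries, which share 8 animals across regions.

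Of 21273 genes tested, 4166 (19.6%) passed an adjusted p of 0.05 for the knockin effect in medulla and 1431 (6.73%) in pons. The interaction passed for 7 genes (0.0329%), 5 of them higher in medulla (0.0235%) and 2 lower (0.0094%), and 1622 genes (7.62%) had an unadjusted p under 0.05. Both regions called 1021 genes, which are 24.5% of the medulla list and 71.3% of the pons list. Of these, 1020 moved the same way, 366 up and 654 down. They are called shared here because their interaction did not pass either. For 788 shared genes the 95% interval of the interaction lay within 0.5 of 0 on the log2 scale, so that the effects in the regions were alike within that margin. A gene whose own effects are under 0.5 can meet this margin with unequal effects. A further 3141 genes were called in medulla and 408 in pons without a call in the other region or in the interaction, and for these no regional difference was shown. The medulla groups were larger than the pons groups, so the number of calls cannot be compared between regions.

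The direction of the knockin effect was mostly the same in both regions. Of the 1431 genes called in pons, 1372 (95.9%) had the same sign in medulla, and of the 4166 called in medulla, 3770 (90.5%) had the same sign in pons, against 14530 (68.3%) of all 21273 genes tested. Because 8 animals gave both tissues, the same count was made with medulla batch 2, whose animals gave no pons library, and there 1650 of 1898 genes called in pons had the same sign (86.9%), as did 4124 of 5119 genes called in medulla (80.6%). With batch 1, 1430 of 1490 genes called in pons did (96.0%), as did 1192 of 1235 genes called in medulla (96.5%). The share over all genes tested was not counted with either batch alone. Without the 4 libraries that stood apart, calls rose to 6015 genes in medulla (28.1%), 4236 in pons (19.8%) and 663 in the interaction (3.09%), with 2223 shared genes. In those libraries, 13.4% of genes rose and 14.7% fell in medulla, and 9.35% rose and 10.4% fell in pons, which the counts of members without the 4 are read against. Without the 5, 5914 genes were called in medulla (27.7%), 3203 in pons (15%) and 460 in the interaction (2.15%), and 13.2% of genes fell in medulla and 9.3% in pons. Knockin pons replicate 4 moved the interaction count most, to 239 genes (1.11%) when it alone was left out. With the animal as a block in the 16 libraries of the 8 animals that gave both regions, the count was 0, with 1059 genes at an unadjusted p under 0.05. The same 16 libraries without the block gave 5 called genes. Values with the animal as a block therefore differ from the main fit by the smaller set of libraries as well as by the block.

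**Figure D1:**
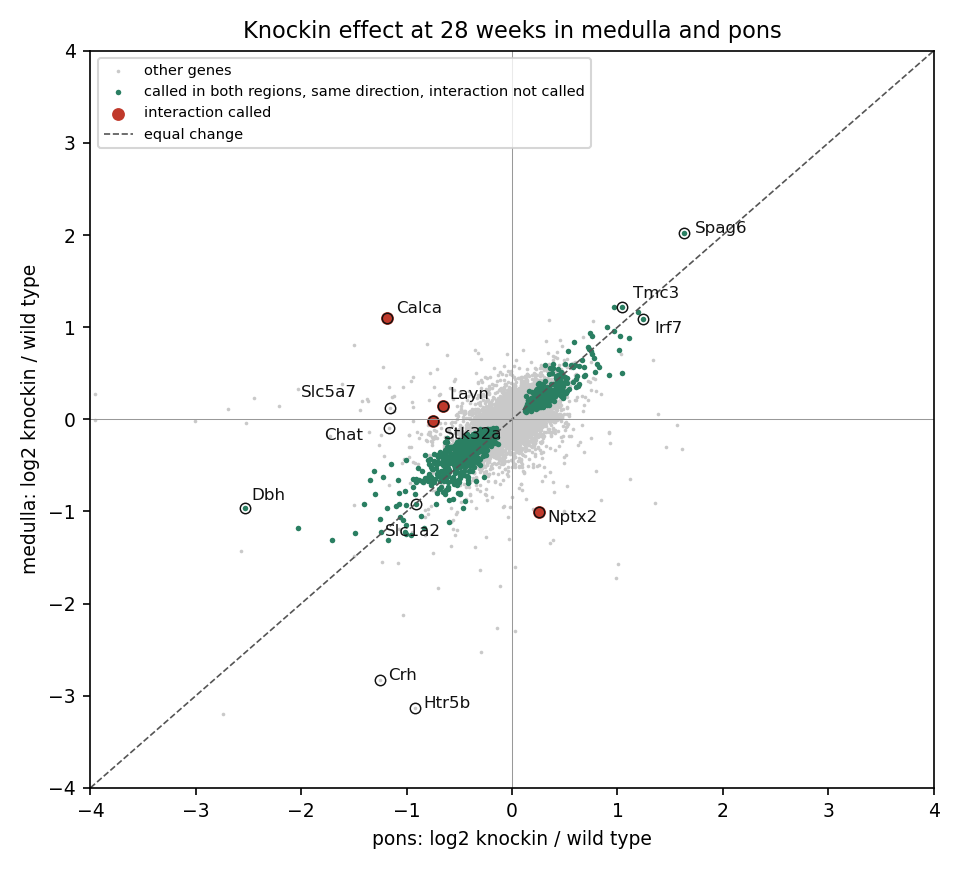
Each point is a gene whose mean log2 CPM reached 1 (13924 genes), placed by its log2 knockin over wild type in pons (horizontal) and in medulla (vertical). Green marks the 912 shared genes and red the genes with a called interaction (Calca, Nptx2, Layn and Stk32a). Their places near or off the dashed line of equal change follow largely from how these sets were defined.

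Interferon response genes were called as rises in both regions. These genes answer type I interferon, a signal of antiviral defence, and many act against viral RNA. Of 29 members tested, 22 rose in medulla and 10 in pons, 9 of them shared, and none fell in either region. Over all genes tested, 9.37% rose in medulla and 2.6% in pons. The median difference was 0.52 in medulla and 0.42 in pons, against 0.00 and 0.01 over all genes tested, and no member had a called interaction. Without the 4 libraries that stood apart, 21 rose in medulla and 11 in pons, and without the 5 it was 21 and 7. In bulk tissue, more cells of a type and more RNA per cell cannot be told apart.

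Irf7, a transcription factor that drives type I interferon genes, had 2.64 to 4.11 CPM in wild type medulla (median 3.33) and 4.54 to 9.73 CPM in knockin medulla (median 7.25). Wild type pons held 3.20, 2.27, 3.48 and 2.71 CPM and knockin pons 6.99, 7.36, 6.46 and 6.85 CPM. Every knockin library lay above every wild type library of its region. The rise was 1.09 ± 0.12 in medulla (log2 ± SE, adjusted p = 8.4e-07) and 1.25 ± 0.17 in pons (adjusted p = 5.6e-05), with an interaction of -0.16 (95% interval -0.59 to 0.27). Ddx60, a helicase of antiviral RNA sensing, rose by 1.17 in medulla and 1.19 in pons, and Ifit1, which binds viral RNA, by 0.96 and 0.97. Usp18, a brake on interferon receptor signalling, rose by 1.22 and 0.97. The widest spread among the shared members was in Rtp4 at 0.48 in medulla and 0.92 in pons (adjusted p of the interaction 0.50).

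The upstream sequences of Ifit1 and Ddx60 are shown because these members rose by nearly the same amount in both regions and carry the interferon-stimulated response element, a motif of GAAA, any 2 bases and GAAA again that interferon-activated factors bind. The sequences are the 250 bases before the annotated start from RefSeq (GRCm38.p6), 5′ to 3′ on the gene's strand, with matches to the motif on either strand in capitals. Ifit1 lies at chr19:34640639-34640888 (plus strand) and Ddx60 at chr8:61927837-61928086 (plus strand).
Ifit1: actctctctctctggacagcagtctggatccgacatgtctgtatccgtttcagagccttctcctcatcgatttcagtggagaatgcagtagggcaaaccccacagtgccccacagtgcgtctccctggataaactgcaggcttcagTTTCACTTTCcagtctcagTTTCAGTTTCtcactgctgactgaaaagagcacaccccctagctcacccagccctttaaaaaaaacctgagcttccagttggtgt
Ddx60: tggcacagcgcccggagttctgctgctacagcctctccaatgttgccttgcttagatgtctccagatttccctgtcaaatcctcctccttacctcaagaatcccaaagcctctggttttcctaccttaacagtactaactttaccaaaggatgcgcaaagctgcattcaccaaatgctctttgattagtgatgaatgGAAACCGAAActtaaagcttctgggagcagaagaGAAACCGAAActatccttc
Each window held 2 matches. Among all 27025 genes with an entry, 936 (3.46%) held a match in this window, and among the interferon response genes 10 of the 18 with an entry did. Of the shared members, 6 had an entry and 2 held a match. The Irf7 window held none. A match describes the letters only.

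Astrocyte genes fell by similar amounts in both regions. Of 20 members tested, 18 fell in medulla and 16 in pons, and the 16 were shared, with 14 of them alike within the margin. Over all genes tested, 10.2% fell in medulla and 4.12% in pons. The median was -0.59 in medulla and -0.54 in pons. Without the 4 libraries that stood apart, 18 fell in medulla and 17 in pons. Slc1a2, the main glutamate transporter of astrocytes, ran from 1420 to 1580.5 CPM in wild type medulla (median 1478) and from 582 to 966 CPM in knockin medulla (median 800.3). In pons the wild type libraries held 1341, 1332, 1299 and 1383 CPM and the knockin libraries 788, 735, 662 and 668 CPM. The groups did not overlap in either region. The fall was -0.91 ± 0.06 in medulla (adjusted p = 1.6e-10) and -0.91 ± 0.08 in pons (adjusted p = 4.9e-07), and the interaction was -0.01 with a 95% interval of -0.22 to 0.21. Agt, the precursor of angiotensin, fell by 1.26 in medulla and 0.96 in pons, and Itih3, a matrix-binding protein, by 1.25 and 1.01. Etnppl, an astrocyte enzyme of phospholipid breakdown, fell by 1.24 and 1.49. Gfap, the astrocyte filament, fell in medulla by 0.58 (adjusted p = 0.034), and its difference in pons of -0.55 did not pass (adjusted p = 0.25).

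Myelin and cholesterol genes fell in both regions as well. Of 23 mature oligodendrocyte and myelin genes, 19 fell in medulla and 16 in pons, 15 of them shared, with medians of -0.34 and -0.50. Over all genes tested, 10.2% fell in medulla and 4.12% in pons. Mbp, the myelin basic protein, fell by 0.24 in medulla (adjusted p = 0.020) and by 0.47 in pons (adjusted p = 0.0062). Its interaction was 0.22 (adjusted p = 0.71) with all libraries and 0.40 (adjusted p = 0.041) without knockin pons replicate 4. The number of myelin members with an unadjusted interaction p under 0.05 in the direction of a lower value in pons was 2 of 23 with all libraries and 16 of 23 without that library, where 6.84% of all genes were.

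Of 24 genes of cholesterol synthesis, on which myelin membranes draw, 17 fell in medulla and 15 in pons. Over all genes tested, 10.2% and 4.12% fell. Of the members, 13 were shared, and all 13 were alike within the margin. The list medians of -0.25 in medulla and -0.35 in pons were smaller than the margin of 0.5, so meeting it does not show equal effects. Mvd, which completes the isoprenoid building block, fell by 0.63 in medulla and 0.76 in pons, and Idi1, the next enzyme, by 0.48 and 0.72. The median interaction was 0.14, and 8 of 24 members had an unadjusted p under 0.05 with a higher value in medulla and 0 with a lower one, against 3.52% and 4.1% of all genes. No member was called in the interaction. Leaving out the 4 libraries, 6 were called, among them Hsd17b7 (0.56, adjusted p = 0.0030) and Sqle (0.27, adjusted p = 0.036). Without the 5, 3 were called, and Sqle was not (adjusted p = 0.055).

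Other shared changes were single genes of different roles. Spag6, a component of the motile axoneme, was at 0.96 to 2.42 CPM in wild type medulla (median 1.505) and 4.09 to 9.39 CPM in knockin medulla (median 6.18). Wild type pons held 0.85, 1.34, 0.78 and 0.93 CPM and knockin pons 3.28, 2.695, 3.43 and 2.68 CPM. Groups were apart in both regions, and the rises of 2.02 in medulla and 1.63 in pons both passed. Tmc3, of the transmembrane channel-like family, rose by 1.21 and 1.05. Igf2bp3, an RNA-binding protein of fetal tissue, was near 0 in wild type, with 10 counts over 8 medulla libraries and 6 over 4 pons libraries, and it held 654 counts over 8 knockin medulla and 353 over 4 knockin pons libraries. Gal, the neuropeptide galanin, fell by 1.31 in medulla and 1.70 in pons, Nppc, the C-type natriuretic peptide, by 1.22 and 1.24, and Chil1, a chitinase-like protein, by 1.10 and 1.04. Dll3, a Notch ligand, rose by 0.51 in medulla and 1.04 in pons (interaction -0.54, adjusted p = 0.48).

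Atxn1 itself (chromosome 13, 45549755 to 45965008, GRCm38) was higher in knockin in both regions. It was at 30.5 to 39.2 CPM in wild type medulla (median 34.8) and 40.4 to 48.5 CPM in knockin medulla (median 44.1). Wild type pons held 40.9, 38.8, 41.8 and 38.3 CPM and knockin pons 59.4, 56.2, 57.6 and 44.1 CPM. Groups were apart in both regions (exact two-sided permutation p = 0.00041 within batches in medulla and 0.029 in pons, the latter the smallest that 4 against 4 can give). The interaction was -0.09 (adjusted p = 0.87). Among 19 genes that Capicua is known to repress, 6 rose and 2 fell in medulla and 2 rose in pons, against 9.37% and 2.6% of all genes that rose. Without the 4, 8 rose and 1 fell in medulla, 2 rose and 3 fell in pons, and 2 were called in the interaction. Those shared were Ccnd2, a cyclin, at 0.91 in medulla and 0.76 in pons, and Etv4, an ETS factor, at 0.59 and 0.60.

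Calca was the gene called in both regions with opposite signs. It encodes calcitonin and the neuropeptide CGRP, which brainstem motor neurons and sensory relay neurons make (ENSMUSG00000030669, chromosome 7, 114631478 to 114636357, GRCm38). Wild type medulla held 11.04 to 21.7 CPM (median 16.98) and knockin medulla 22.8 to 55.2 CPM (median 35.1). In wild type pons the libraries held 12.01, 13.8, 22.6 and 14.1 CPM and knockin pons 10.2, 3.96, 4.13 and 9.28 CPM. Every knockin library was above wild type in medulla and every one below it in pons. The difference was 1.10 ± 0.19 in medulla (adjusted p = 0.00027) and -1.18 ± 0.27 in pons (adjusted p = 0.0097), an interaction of 2.29 ± 0.33 (adjusted p = 0.016). Leaving out each library in turn gave 2.06 to 2.55, and only the fit without wild type pons replicate 3 lost the call (adjusted p = 0.062). With the animal as a block it was 2.33 (95% interval 1.56 to 3.09, adjusted p = 0.21). The same libraries without the block, medulla batch 1 and pons, gave 2.26 (adjusted p = 0.17).

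Nptx2, a secreted pentraxin that gathers AMPA receptors at excitatory synapses, fell in medulla alone. It was at 6.401 to 9.30 CPM in wild type medulla (median 8.04) and 2.60 to 5.58 CPM in knockin medulla (median 4.02). The wild type pons libraries held 6.75, 6.38, 8.11 and 8.68 CPM and knockin pons 10.2, 9.94, 8.52 and 7.07 CPM. Medulla groups were apart and pons groups overlapped. The difference was -1.01 ± 0.13 in medulla (adjusted p = 7.6e-06) and 0.25 ± 0.18 in pons (adjusted p = 0.48), and the interaction -1.26 ± 0.23 (adjusted p = 0.031). The call was kept in 10 of 24 fits that left out 1 library, with values from -1.35 to -1.18, and with the animal as a block the value was -1.28 (adjusted p = 0.55).

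Layn and Stk32a fell in pons alone. Layn, a hyaluronan receptor, was at 4.44 to 6.92 CPM in wild type medulla (median 6.02) and 5.04 to 7.83 CPM in knockin medulla (median 6.22), which overlapped. In wild type pons the libraries held 4.28, 4.38, 5.30 and 4.92 CPM and knockin pons 3.44, 2.88, 2.37 and 3.29 CPM, which were apart. Its difference was 0.14 in medulla and -0.66 ± 0.11 in pons, with an interaction of 0.80 ± 0.13 (adjusted p = 0.016, and 0.21 with the animal as a block). Stk32a, a serine/threonine kinase, was at 12.97 to 20.3 CPM in wild type medulla (median 17.4) and 12.97 to 22.3 CPM in knockin medulla (median 16.7). The wild type pons libraries held 12.4, 16.2, 15.7 and 12.7 CPM and knockin pons 9.66, 7.11, 8.60 and 8.47 CPM. The medulla groups overlapped fully and the pons groups were apart. The interaction was 0.73 ± 0.13 (adjusted p = 0.026, and 0.69 with the animal as a block).

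The other 3 genes with a called interaction were expressed at low levels, and they are named because they complete the 7. Ppp1r1c, a regulatory subunit of protein phosphatase 1, had a mean of 0.94 CPM in wild type and 2.25 CPM in knockin medulla, and of 1.40 CPM in wild type and 1.06 CPM in knockin pons (interaction 1.65 ± 0.27, adjusted p = 0.016). Styk1, a kinase-like receptor, had means of 1.15 CPM (wild type) and 0.36 CPM (knockin) in medulla, and of 0.61 and 0.69 CPM in pons (interaction -1.86 ± 0.33, adjusted p = 0.027). With the animal as a block the adjusted p was 0.59 for Ppp1r1c and 0.099 for Styk1. Fezf2, a transcription factor of projection neurons, had 16 counts over 8 wild type medulla libraries and 347 over 8 knockin ones, of which replicate 8 held 2. Over 4 pons libraries each it had 28 counts in wild type and 6 in knockin. These counts are too low for a fold change.

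**Figure D2:**
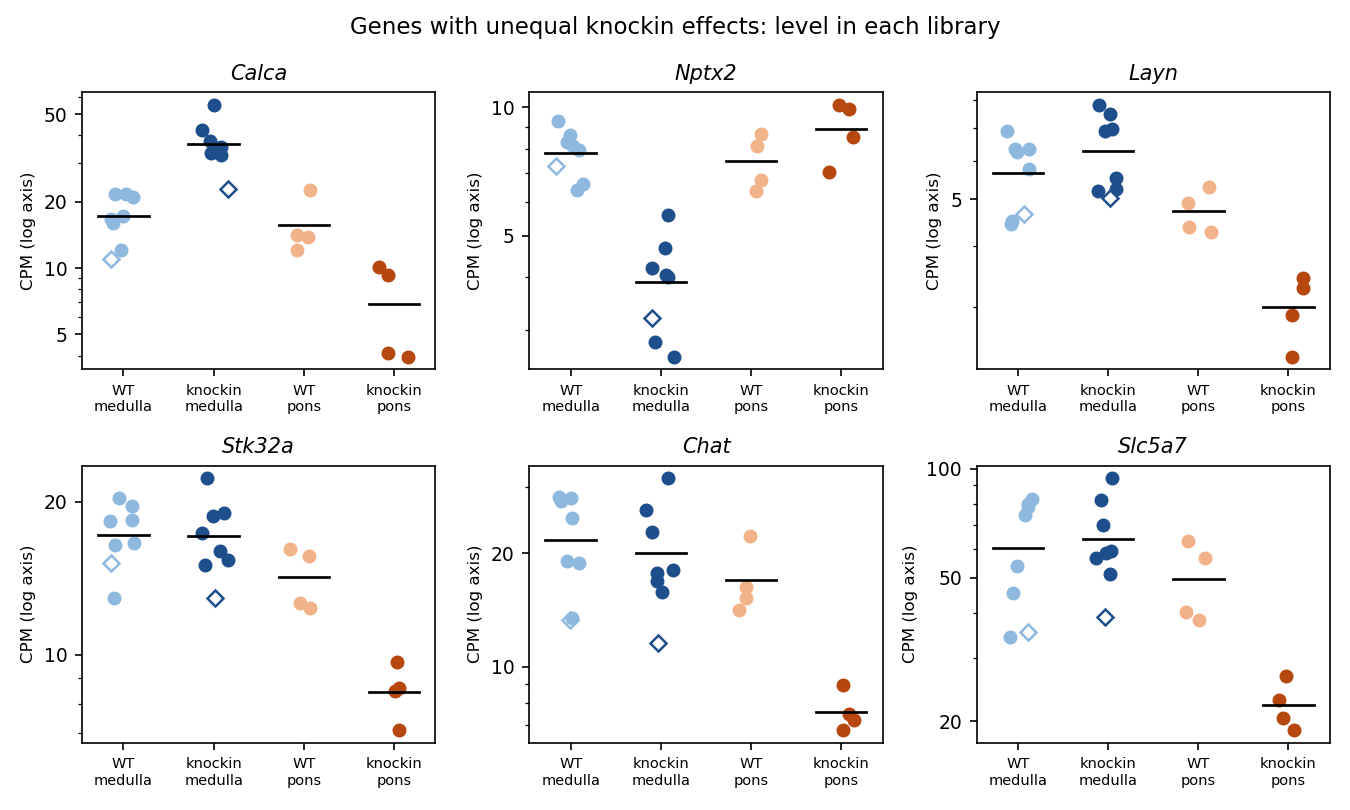
Each point is 1 library, with CPM on a log axis, the groups along the horizontal axis and a bar at the group mean. White diamonds mark the 2 medulla libraries low in Hox genes. Calca moves in opposite directions in medulla and pons, Nptx2 is lower in knockin medulla, and Layn, Stk32a, Chat and Slc5a7 are lower in knockin pons with medulla groups that overlap.

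Genes of cholinergic motor neurons, the cells that drive muscle, were called as falls more in pons than in medulla. Of 15 members, 7 fell and 0 rose in pons, where 4.12% of all genes fell. In medulla 1 fell and 2 rose, against 10.2% and 9.37% of all genes. The other 8 did not pass in pons. The median was -0.98 in pons and 0.00 in medulla. For 11 of the 15 the interaction was higher with an unadjusted p under 0.05 and for 0 it was lower, against 3.52% and 4.1% of all genes. Calca, a member, was the one with a called interaction. Leaving out the 4 libraries, 9 members fell in pons and 1 rose in medulla, and 4 were called in the interaction, or 5 without the 5 libraries.

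Chat, which makes acetylcholine, was at 13.3 to 28.3 CPM in wild type medulla (median 22.0) and 11.6 to 31.8 CPM in knockin medulla (median 17.9). In wild type pons the libraries held 16.3, 15.2, 22.2 and 14.2 CPM and knockin pons 8.91, 7.19, 6.77 and 7.45 CPM. The medulla groups overlapped and the pons groups were apart. Chat fell by 1.16 ± 0.19 in pons (adjusted p = 0.00036) and differed by -0.10 ± 0.13 in medulla (adjusted p = 0.67). Its interaction of 1.07 ± 0.23 did not pass with all libraries (adjusted p = 0.17) and passed without the 4 libraries that stood apart (1.16, adjusted p = 0.0029).

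Slc5a7, which takes up choline, held 56.5, 40.1, 63.1 and 38.2 CPM in wild type pons and 26.7, 18.9, 20.4 and 22.9 CPM in knockin pons. In medulla it ran from 34.2 to 82.6 CPM in wild type (median 64.0) and from 39.0 to 94.2 CPM in knockin (median 58.7), with overlap. Its interaction was 1.28 ± 0.25 (adjusted p = 0.10). Slc18a3, which loads acetylcholine into vesicles, had an interaction of 1.23 (adjusted p = 0.25). Its gene lies inside the span of Chat on the same strand (chromosome 14, 32462438 to 32464850, within 32408203 to 32465989), and the handling of reads over both genes is not stated. Without the 4 libraries both passed (Slc5a7 1.38, adjusted p = 0.0053, and Slc18a3 1.25, adjusted p = 0.025). Chodl, a marker of fast motor neurons, differed by -1.26 in pons (adjusted p = 0.00064) and -0.28 in medulla (adjusted p = 0.19).

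Of 13 neurofilament and axon genes, 4 fell in medulla and 3 in pons, against 10.2% and 4.12% of all genes, and the neurofilament subunits, which fill large axons, were among them. Without the 4, 3 fell in medulla and 5 in pons, and 5 were called in the interaction. Nefl fell by 0.63 in pons and 0.37 in medulla, Nefm by 0.64 and 0.25, and Nefh by 0.62 in pons, with -0.19 in medulla (adjusted p = 0.058). Their interactions of 0.27, 0.39 and 0.42 had adjusted p-values of 0.52, 0.37 and 0.38. Without knockin pons replicate 4 they were 0.38, 0.50 and 0.60 (adjusted p = 0.040, 0.021 and 0.0042). That library held 432 CPM of Nefh, against 267 to 313 CPM in the other 3 knockin pons libraries.

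Noradrenergic genes were called as falls in both regions. Of 14 members, 8 fell in medulla and 6 in pons, against 10.2% and 4.12% of all genes, 4 of them shared, and none rose. Without the 4, 8 fell in medulla and 11 in pons and 3 were called in the interaction, and without the 5 it was 8, 8 and 3. The medians were -0.72 and -0.95. Dbh, which makes noradrenaline from dopamine (chromosome 2, 27165233 to 27183200, GRCm38), held 30.8, 34.9, 40.9 and 38.01 CPM in wild type pons and 6.26, 5.67, 6.32 and 6.70 CPM in knockin pons. In medulla it was at 9.17 to 27.4 CPM in wild type (median 11.1) and 4.24 to 13.9 CPM in knockin (median 5.98). The highest library of each medulla group was the one low in Hox genes, and without these the ranges were 9.17 to 14.9 CPM and 4.24 to 8.18 CPM, which were apart.

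Dbh fell by 2.53 ± 0.34 in pons (adjusted p = 7.1e-05) and by 0.96 ± 0.23 in medulla (adjusted p = 0.0054). The interaction was 1.58 ± 0.40 with all libraries (adjusted p = 0.27) and 1.60 ± 0.20 without the 2 low-Hox libraries (adjusted p = 0.0012). With the animal as a block it was 1.55 (adjusted p = 0.075). Knockin levels of Dbh in pons and medulla were close, while wild type levels were higher in pons.

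Slc6a2, the noradrenaline transporter, held 44.5, 45.3, 59.1 and 41.9 CPM in wild type pons and 7.61, 7.28, 9.04 and 8.18 CPM in knockin pons, which were apart. The difference of -2.57 did not pass with all libraries (adjusted p = 0.078), among which the 2 low-Hox medulla libraries held 35.1 and 14.2 CPM, and it passed without them (adjusted p = 5.5e-06). There, Slc6a2 fell in medulla by 1.39 (adjusted p = 0.00013), and its interaction was 1.19 (adjusted p = 0.30). Phox2a, a factor that specifies noradrenergic neurons, fell by 0.67 in medulla and 1.68 in pons (interaction 1.01, adjusted p = 0.32), and passed without the 4 libraries that stood apart (1.17, adjusted p = 0.016). Th differed by -0.93 in medulla and -1.50 in pons (adjusted p = 0.057 and 0.055).

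Inferior olive genes were called in medulla alone with all libraries. Of 10 members, 7 fell and 1 rose in medulla, where 10.2% of all genes fell, while 0 were called in pons, with medians of -0.63 and -0.09. The interaction was lower in medulla with an unadjusted p under 0.05 for 6 of 10 and higher for 1, against 4.1% and 3.52% of all genes, and no member was called with all libraries. Leaving out the 4 libraries, 3 fell and 2 rose in pons and 6 were called in the interaction, and without the 5 it was 3, 2 and 4.

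Crh, corticotropin-releasing hormone, which olivary neurons send to Purkinje cells (chromosome 3, 19693401 to 19695396, GRCm38), was at 3.77 to 36.9 CPM in wild type medulla (median 22.1) and 2.21 to 3.88 CPM in knockin medulla (median 3.12). The wild type library at 3.77 CPM was replicate 5, low in Hox genes, and the next lowest held 15.8 CPM. The wild type pons libraries held 4.98, 6.28, 4.61 and 4.59 CPM and knockin pons 2.02, 2.28, 2.11 and 2.18 CPM. Apart from replicate 5 the groups did not overlap in either region. Crh fell by 2.83 ± 0.28 in medulla (adjusted p = 4.8e-07) and differed by -1.25 ± 0.39 in pons (adjusted p = 0.059). The interaction was -1.57 ± 0.47 with all libraries (adjusted p = 0.41) and -1.74 ± 0.25 without the 2 low-Hox libraries (adjusted p = 0.0031). With the animal as a block it was -1.74 (adjusted p = 0.099).

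Htr5b, a serotonin receptor rich in the olive, had a median of 16.9 CPM in wild type medulla and 1.94 CPM in knockin medulla. Its wild type pons libraries held 2.12, 2.04, 1.38 and 1.92 CPM and its knockin pons libraries 0.94, 1.15, 1.01 and 0.86 CPM. It fell by 3.13 in medulla (adjusted p = 3.6e-05) and differed by -0.92 in pons (interaction -2.21, adjusted p = 0.47). Without the 4 its interaction was -2.12 (adjusted p = 0.035), and without the 5 it was -2.14 (adjusted p = 0.065). C1ql1, the climbing fibre protein that binds Purkinje cell receptors, fell by 1.83 in medulla and differed by -0.71 in pons (interaction -1.12, adjusted p = 0.47). Foxp2, a transcription factor of olivary and other neurons, fell by 0.88 in medulla and held 35.4, 37.2, 37.7 and 12.5 CPM in knockin pons against 17.4, 13.05, 17.4 and 20.8 CPM in wild type pons. Its interaction of -1.72 (adjusted p = 0.19) became -1.97 (adjusted p = 0.0058) without knockin pons replicate 4, the library at 12.5 CPM. Apart from that library, Foxp2 was higher in knockin than in wild type pons, so its interaction did not come from medulla alone. Pou4f1, another such factor, also had 1 low library there, with 8.11, 8.99, 7.82 and 0.73 CPM in knockin pons. The interaction of Pou4f1 was -2.58 (adjusted p = 0.47) with all libraries and -2.87 (adjusted p = 0.00041) without the 4.

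Genes chosen after their values were seen, because their interaction passed without the 2 low-Hox libraries (14 genes, 0.066%), included Rims4 and Stac. Rims4, a presynaptic release protein, was at 56.1 to 117 CPM in wild type medulla (median 85.7) and 39.5 to 48.9 CPM in knockin medulla (median 43.2). In wild type pons the libraries held 57.0, 53.7, 54.0 and 60.8 CPM and knockin pons 58.2, 56.6, 56.5 and 50.8 CPM. Medulla groups were apart and pons groups overlapped, with an interaction of -0.93 (adjusted p = 0.099) with all libraries and -0.97 (adjusted p = 0.0072) without the 2. Stac, an adaptor of calcium channels, fell in medulla from a median of 12.1 to 3.60 CPM, and its interaction without the 2 was -1.71 (adjusted p = 0.0031). Vdr, the vitamin D receptor, fell in pons by 0.95 with a difference of 0.19 in medulla, and its interaction without the 2 was 1.305 (adjusted p = 0.015).

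**Figure D3:**
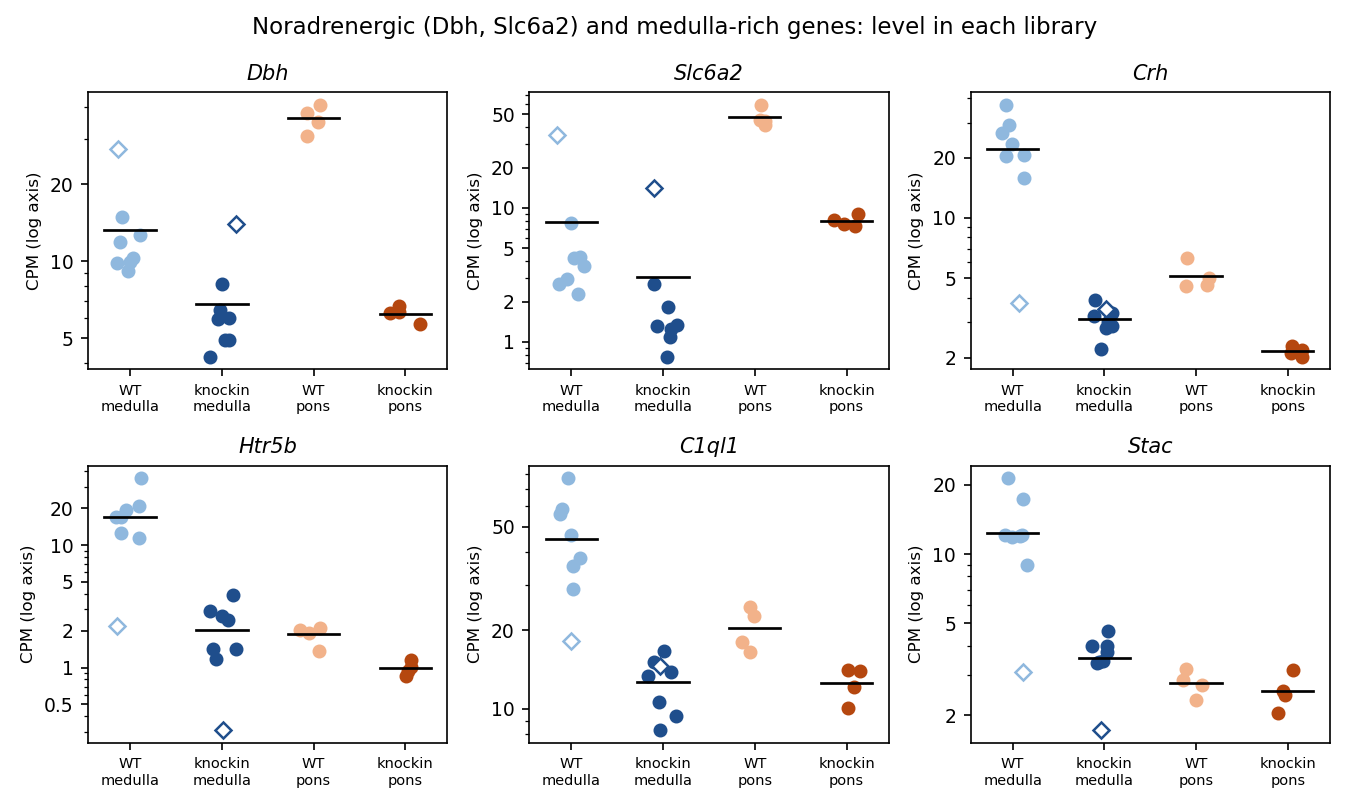
Each point is 1 library, with CPM on a log axis, the groups along the horizontal axis and a bar at the group mean. White diamonds mark the 2 medulla libraries low in Hox genes, which for Slc6a2 lie above the other medulla libraries of their group and for Stac below them. Dbh falls from 30.8 to 40.9 CPM in wild type pons to 5.67 to 6.70 CPM in knockin pons, and Crh, Htr5b, C1ql1 and Stac fall in medulla.

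Serotonergic genes were called as falls in both regions, and no difference between the regions was shown. Of 14 members, 9 fell in medulla and 2 in pons, against 10.2% and 4.12% of all genes, with medians of -0.87 and -0.51, and no member had an interaction with an unadjusted p under 0.05. Without the 4, 8 fell in medulla and 4 in pons, all 4 of them shared. Htr1a and Htr1d, receptors through which serotonin neurons restrain themselves and other terminals, were the 2 shared falls, at -0.80 and -0.50 for Htr1a and -0.74 and -0.94 for Htr1d. Tph2, which makes serotonin, fell by 1.56 in medulla, but held 214 CPM in the low-Hox wild type replicate 5 against 31.9 to 97.7 CPM in the other wild type medulla libraries. Without the 2 low-Hox libraries it fell by 1.08 (adjusted p = 0.023), and the interaction moved from -0.48 to 0.01.

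Motile cilia genes were called as falls in medulla for 7 of 23 members and in pons for 0, against 10.2% and 4.12% of all genes, beside the shared rise of Spag6. Tmem212 and Ccdc153, both of ependymal cilia, fell by 1.39 and 1.45 in medulla and differed by -0.35 and -0.75 in pons. No cilia member had a called interaction, and 3 of 23 were lower in medulla at an unadjusted p under 0.05, against 4.1% of all genes. That count was 7 without the 4 and 9 without the 5. Leaving out knockin medulla replicate 2 raised the falls in medulla to 12, against 13.5% of all genes there. Choroid plexus genes, whose tissue adjoins the dissected regions, had 0 of 12 members called in either region, with medians of 0.34 in medulla and -1.06 in pons. Their summed level ran from 601 to 6878 CPM in wild type medulla, 814 to 33591 CPM in knockin medulla, 567 to 2320 CPM in wild type pons and 452 to 590 CPM in knockin pons. Its part in the cilia result was not tested.

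Hox genes, which follow the place of dissection, had a median of -0.07 in medulla and -0.50 in pons. In medulla 4 of 21 members rose and 1 fell, against 9.37% and 10.2% of all genes, and 0 were called in pons. Leaving out the 4 libraries, 10 of 21 members fell and 1 rose in pons, 6 were called in the interaction, and the medians were -0.03 and -1.02. Without the 5, 8 fell and 1 rose in pons and the pons median was -0.69. The wild type pons libraries other than replicate 2 had a mean Hox level of -0.88 to -0.72, and the knockin ones other than replicate 4 -1.32 to -0.99. The part of the Hox level in the cholinergic, neurofilament and myelin differences was not tested.

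**Figure D4:**
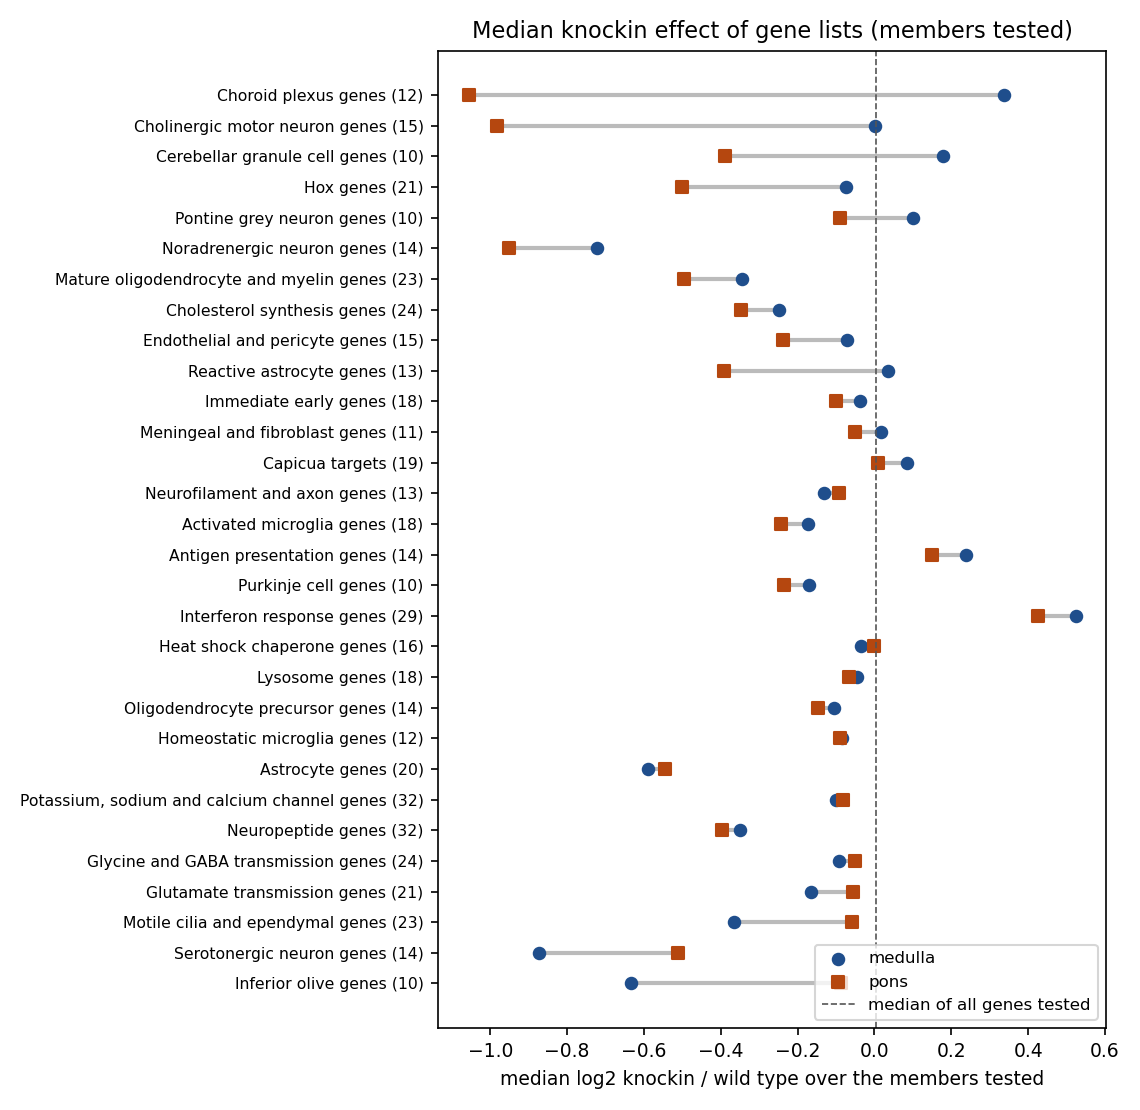
Median log2 knockin over wild type of the tested members of each gene list with at least 10 of them, in medulla (circles) and pons (squares), ordered by the median interaction of the members. Astrocyte genes sit at -0.59 and -0.54 and interferon genes at 0.52 and 0.42, while cholinergic motor neuron genes (0.00 and -0.98) and inferior olive genes (-0.63 and -0.09) lie apart in opposite directions.

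The knockin effect was also compared between the 2 medulla batches, where 0 of 20804 genes passed in edgeR and 3617 (17.4%) had an unadjusted p under 0.05. The interaction between regions was refitted with each batch. Calca was 2.26 with batch 1 and 2.33 with batch 2, Nptx2 -1.27 and -1.24, Layn 0.83 and 0.79, and Stk32a 0.77 and 0.72. Chat was 0.99 and 1.17, Dbh 1.57 and 1.60, and Crh -1.74 and -1.38. Each of these had the same sign with either medulla batch. Both refits used the same pons libraries, so the pons part of each value was common to both. The like values are therefore not a repeat in separate animals. For some genes given above as shared, the interaction changed sign between batches. Slc1a2 was -0.15 with batch 1 and 0.16 with batch 2, Irf7 0.15 and -0.45, and Tmc3 -0.14 and 0.49, with no adjusted p under 0.22. Spag6 (0.30 and 0.50) and Gal (0.29 and 0.53) kept their sign. With batch 1 alone, 5 genes were called (Crh, Dbh, Fezf2, Stac and Styk1), and with batch 2 alone 377. The adjusted p with batch 1, without an animal block, was 0.17 for Calca, 0.11 for Nptx2, 0.11 for Layn and 0.14 for Stk32a.

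**Figure D5:**
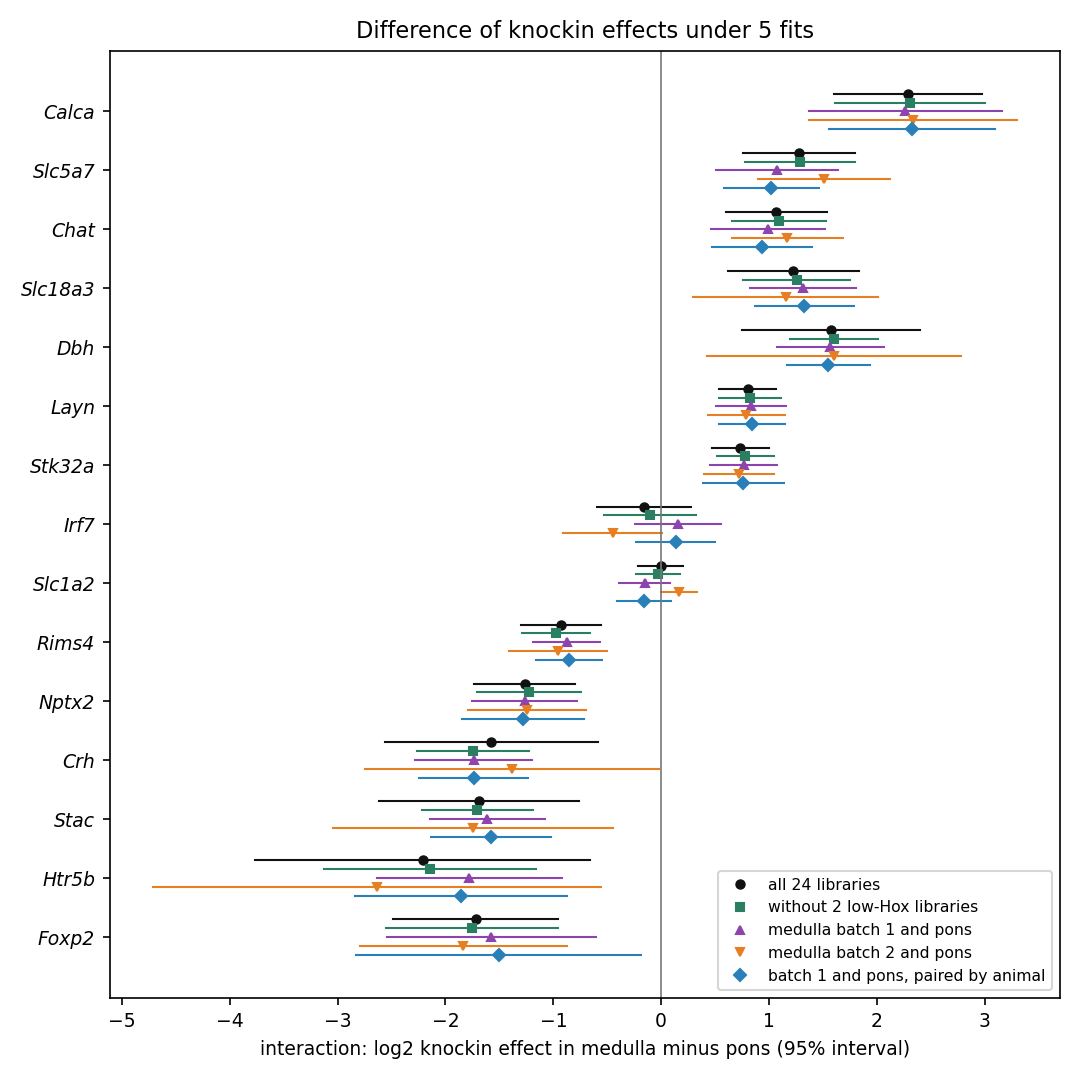
Interaction (log2 knockin effect in medulla minus pons) with its 95% interval for 15 genes under 5 fits, marked by colour and shape. Genes above Irf7 have values over 0 and genes below Slc1a2 values under 0 in all 5 fits. Irf7 runs from -0.45 to 0.15 and Slc1a2 from -0.16 to 0.16, on both sides of 0. The intervals of Dbh, Crh and Stac narrow without the 2 low-Hox libraries.

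At 18 weeks the same interaction was fitted on 12 other vehicle-treated libraries, 3 per group. By the numbers that end the file headers, each medulla library there shared its animal with a pons library. The fit held no term for the animal, so its p-values and SEs treat the libraries as separate. In edgeR, 0 of 20024 genes passed, with 1738 (8.68%) at an unadjusted p under 0.05. Of the 2 libraries of wild type replicate 3 by their labels, that of medulla held 15.2 CPM of Atxn1, and the pons library with that label held 16.4 CPM, each under the other wild type libraries of its region. Without them 0 genes passed, and 1854 (9.11%) had an unadjusted p under 0.05. Of the 7 genes called at 28 weeks, 6 were tested at 18 weeks and 4 had the same sign, or 5 without these libraries. Calca was 0.62 ± 0.74, and Nptx2 was 1.00 ± 0.28, opposite to its value at 28 weeks. Whether the interaction changed with age was not tested.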

How the data were processed

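The values are gene counts that the authors deposited, made with CASAVA 1.8, HISAT2 2.0.2 and featureCounts of Subread on GRCm38, per the submitters' processing notes. The handling of reads over overlapping genes is not stated there. Gene names came from GENCODE vM21 and matched 49411 of 49670 identifiers. Counts were filtered by expression (minimum count 10), scaled by TMM and fitted with edgeR 4.0.16 (robust quasi-likelihood, R 4.3.3) over the 4 groups with medulla batch as a term. P-values were adjusted by Benjamini-Hochberg over all genes tested, with a threshold of 0.05, and each SE was taken from the F statistic. DESeq2 1.42.0, limma 3.58.1, other scalings, blocks and leaving out libraries were alternatives. The scripts were tested on simulated data.

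Same-numbered medulla batch 1 and pons libraries were taken to come from the same animal, by the number that ends the file header. Deviations from the group means correlated by -0.10 to 0.17 over the 8 pairs, with a median of 0.07. In some of these pairs a pons library with another number correlated more, and in others less. Named genes were a fixed list plus the called genes with a mean log2 CPM of at least 1 and the largest interaction, opposite and shared changes. The members and lists were chosen with earlier results of these data known. Ppp1r1c, Styk1, Fezf2, Rims4, Stac, Vdr and list members outside that rule were chosen after their values were seen. Leaving out the 2 low-Hox, the 4 or the 5 libraries was also chosen after seeing the data.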

Additional observations from a re-analysis of the deposited data

Results flagged for a closer look

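Among 84 groups examined for 21 items, 9 held a library far from the others of its group, and chance alone marks about 1 in 20 groups. Wild type medulla replicate 5 stood apart for Dbh at 27.4 CPM, Slc6a2 at 35.1 CPM, Th at 48.1 CPM and the mean Hox level at -0.57 log2 CPM. Knockin medulla replicate 8 stood apart for Dbh at 13.9 CPM, Slc6a2 at 14.2 CPM and the mean Hox level at -0.18. Knockin pons replicate 4 stood apart for Foxp2 at 12.5 CPM, and wild type pons replicate 2 for the mean Hox level at 0.37.

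The knockin effect differed between medulla and pons by the interaction test for 7 genes. The log2 difference was 2.29 for Calca, 1.65 for Ppp1r1c, 0.80 for Layn, 0.73 for Stk32a, -1.26 for Nptx2 and -1.86 for Styk1. The fitted 6.38 of Fezf2 rests on near-empty groups and depends on the prior count.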

How the results depend on the processing

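The number of genes with a called interaction, 7 with all libraries, depended on the fit. It was 4 with all 6 groups at 28 weeks, 377 with medulla batch 2 alone, 998 with that batch without its 2 low-Hox libraries, 14 without these 2 libraries, 663 without the 4 libraries that stood apart, 460 without these and wild type pons replicate 2, and 50 with DESeq2, which called 6 of the 7. Leaving out 1 library gave 0 (wild type pons replicate 3, 1538 genes at an unadjusted p under 0.05) to 239 (knockin pons replicate 4). It was also 13 without wild type medulla replicate 5, 14 without knockin medulla replicate 2, 3 without wild type pons replicate 2, and 1 and 4 without knockin pons replicates 2 and 3. Calls in medulla (4166) were 1235 with batch 1 alone and 3406 to 5667 leaving out 1 library. Calls in pons (1431) were 2660 with batch 2 without the low-Hox libraries, 4236 without the 4, 3203 without the 5, and 735 to 2370 leaving out 1 library (knockin pons replicates 2 and 4). Shared genes (1020) were 639 with batch 1 alone, 2223 without the 4, 1802 without the 5, and 623 to 1460 leaving out 1 library. The cause was not tested. No value with a call changed sign in the settings run.

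With the animal as a replicate block, 0 genes were called (1059 at an unadjusted p under 0.05), 4 with the number as a block across groups, and 4 with limma voom and the animal as a random effect. The fit with 0 calls used medulla batch 1 and pons only, where 5 genes were called without the block. The median 95% half-width of the interaction was 0.31 on the log2 scale, for a single gene before adjustment over all genes tested. Calls needed more than that, and larger differences also went uncalled with all libraries. Among these were Chat at 1.07 and Dbh at 1.58.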
